A study of Mus musculus with 88 samples.

Results

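The caudal-type homeobox genes of the mouse, Cdx1, Cdx2 and Cdx4, were followed through every expression table of a study of Polycomb repressive complex 2 (PRC2) mutants. They were chosen by name as a gene family, though with earlier results of these data known. They are 3 of 53697 genes in the table of mesoderm differentiation, of 54393 in that of endoderm differentiation and of 26007 in that of bulk embryoid bodies. The single-cell table of 15830 genes holds Cdx1 and Cdx2 and has no row for Cdx4. Of the 3 genes, Cdx1 and Cdx2 had enough reads to enter the tests of the directed differentiations and of the embryoid bodies, and Cdx4 had not.

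CDX proteins are homeodomain transcription factors related to caudal of the fly. They are switched on by Wnt, FGF and retinoic acid signalling in the primitive streak and the tail bud, where they act upstream of central and posterior Hox genes and keep axial progenitors going. Cdx2 is also needed for the trophectoderm and sets the identity of the intestinal epithelium, in which Cdx1 is expressed as well. PRC2 methylates lysine 27 of histone H3 at silent developmental genes. EED is a core subunit, MTF2 marks the variant PRC2.1 and JARID2 the variant PRC2.2.

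The directed series compared WT, Mtf2 null and Jarid2 null embryonic stem cells (ESCs). Cells were undifferentiated or taken after 5, 24 and 48 h of monolayer differentiation to mesoderm or to endoderm, with 2 libraries per genotype and time. All titles of this series carry E14, which the study lists as a WT line. The study matched Pcl1-3 WT to the Mtf2 null and JM8 to the Jarid2 null cells, so mutants and WT of this series may differ in background. The Mtf2 null cells are a gene-trap line (Mtf2GT/GT), the Jarid2 null cells are Jarid2-/- and each genotype is 1 cell line, grown in serum with LIF before differentiation. For 24 h the mesoderm cultures received Activin A, CHIR99021, FGF2 and BMP4 and the endoderm cultures the first 3 of these. The doses of Activin A and CHIR99021 also differed between the 2 arms, with more CHIR99021 in mesoderm. Mesoderm cultures then received A-83-01 with BMP4, and endoderm cultures Activin A with DM3189. Single cells, with titles that again carry E14, came from embryoid bodies of the same 3 genotypes and of Eed null (Eed-/-) cells. They were taken at days 0, 4, 7 and 10, with 1 library each. Bulk embryoid bodies were sampled at days 0, 2, 4 and 7, with 1 sample per line and day, from lines labelled eedko, jarid2ko and mtf2ko and their matched WT lines J1, JM8 and Pcl1-3 WT. Directed libraries held 9111880 to 16898264 counts in mesoderm and 9889592 to 16372804 in endoderm, and embryoid body samples 4071242 to 30457254 reads. Within a group of the directed series the libraries are technical duplicates, so the p-values of that series measure only the spread between such duplicates. In bulk embryoid bodies the p-values measure the scatter of single samples over lines and days.

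The labels were checked on the targeted transcripts. Mtf2 was at 30.2 to 38.2 CPM, counts scaled to the total of a library, in the Mtf2 null mesoderm libraries against 206 to 499 in WT, and at 31.1 to 36.8 against 218 to 509 in endoderm. Jarid2 overlapped between Jarid2 null (189 to 622 CPM) and WT (318 to 661 CPM) in mesoderm, so its transcript does not check that label. The primitive streak gene T (Brachyury) went from 0.170 to 0.197 CPM in undifferentiated WT to 55.6 to 59.8 at 24 h of mesoderm differentiation and 22.3 to 27 of endoderm. The defining endoderm markers were near 0 in WT after 48 h of endoderm differentiation, with Sox17 at 0.173 to 0.377 CPM, Foxa2 at 0 to 0.346 and Cxcr4 at 0.260 to 0.471. The summed CPM of 4 pluripotency markers (Nanog, Esrrb, Zfp42 and Klf4) was still 707 to 779 in WT mesoderm and 391 to 422 in WT endoderm at 48 h. In bulk samples, fewer cells of a type and less RNA per cell cannot be told apart.

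Each of the 3 genes has 3 exons in GENCODE M21 (GRCm38) and no other gene overlaps it. Cdx2 (ENSMUSG00000029646) lies on the minus strand at chr5:147300805-147307270, in the ParaHox cluster 24957 bp from Pdx1 and 7714 bp from Urad. Cdx4 (ENSMUSG00000031326) lies on the plus strand at chrX:103321398-103330592, 25884 bp from Chic1. The sequence upstream of the gene start is shown for Cdx2 and Cdx4, since CG-rich promoters are the usual sites of PRC2 and MTF2 is known to bind DNA with unmethylated CG. It was taken from RefSeq (GRCm38.p6), which gave a promoter for 2 of the 3 genes here, and the capitals mark each CG. The Cdx2 stretch is chr5:147307271-147307499 on the minus strand and that of Cdx4 is chrX:103321148-103321397 on the plus strand.
Cdx2: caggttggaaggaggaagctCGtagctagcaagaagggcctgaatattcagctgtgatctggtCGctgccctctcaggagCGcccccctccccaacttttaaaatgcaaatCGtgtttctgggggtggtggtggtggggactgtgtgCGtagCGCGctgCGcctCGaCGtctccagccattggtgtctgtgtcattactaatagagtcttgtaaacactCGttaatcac
Cdx4: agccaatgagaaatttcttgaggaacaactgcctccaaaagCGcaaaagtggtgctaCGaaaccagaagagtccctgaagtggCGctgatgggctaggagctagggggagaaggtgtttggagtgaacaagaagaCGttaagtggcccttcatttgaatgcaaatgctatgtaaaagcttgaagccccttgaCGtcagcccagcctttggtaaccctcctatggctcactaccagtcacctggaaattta

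The 229 bases before Cdx2 hold 11 CG, against a median of 5 over the same stretch of 32851 mouse promoters, and 32.3% of these hold at least 11. The 250 bases before Cdx4 hold 5 CG against a median of 6, and 55.6% of promoters hold at least 5. Cdx2 thus sits in the CG-richer part of the range and Cdx4 near its middle. TTTAT, the core of caudal-type binding sites, was searched on both strands and is in neither stretch, while 35.8% and 37.3% of promoters hold it at these lengths. CTTTG, the core of TCF/LEF sites, is absent before Cdx2 (46.0% of promoters hold it) and occurs 1 time before Cdx4 (48.6%). The octamer ATGCAAAT, looked for after both sequences had been read, occurs 1 time in each, against 1.53% and 1.60% of all promoters. These are matches of letters and not mapped sites.

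Cdx1 (ENSMUSG00000024619) lies on the minus strand at chr18:61018862-61036199, 8951 bp from Pdgfrb and 4640 bp from Slc6a7. In the course from ESC to primitive streak, Cdx1 was low in undifferentiated cells, highest at 24 h and lost at 48 h. The 2 undifferentiated WT libraries of the mesoderm series stood at 0.591 and 1.19 CPM, those at 5 h at 5.51 and 9.19, those at 24 h at 20.3 and 17.4, and both libraries at 48 h had 0 reads. The WT endoderm libraries stood at 1.33 and 1.12, 3.47 and 3.94, and 6.76 and 4.92 CPM at the first 3 times and again at 0 reads at 48 h. In both series the 24 h libraries lay above the undifferentiated ones and the 48 h libraries below every other.

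Called here means a Benjamini-Hochberg adjusted p under 0.001 in edgeR's quasi-likelihood test over all genes of a table and a log2 fold change beyond 1 in either direction. From undifferentiated to 24 h of mesoderm differentiation, Cdx1 rose 20.5-fold in WT (log2 fold change 4.36 ± 0.28 SE, adjusted p = 3.8e-09), 7.45-fold in Mtf2 null (2.90 ± 0.21, 2.2e-08) and 10.3-fold in Jarid2 null (3.37 ± 0.26, 3.5e-08). Among all genes tested, 6.96%, 4.1% and 7.88% were called in these comparisons. In endoderm Cdx1 rose 4.72-fold in WT (2.24 ± 0.36, adjusted p = 8.6e-05) and 4.81-fold in Jarid2 null (2.27 ± 0.33, 3.8e-05), with 5.31% and 4.25% of genes called. In Mtf2 null endoderm the difference was 1.39 ± 0.27 on the log2 scale and missed the threshold (adjusted p = 0.00117), where 3.24% of genes were called. The endoderm calls were lost on leaving out WT replicate 1 at 24 h or either undifferentiated WT library (adjusted p up to 0.00358), or Jarid2 null replicate 2 at 24 h (0.00129).

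Between 24 and 48 h Cdx1 fell in every genotype and in both series. With 0 reads at 48 h, it was at least 172-fold lower in WT and at least 125-fold lower in Jarid2 null mesoderm, and at least 42.7-fold and 68.3-fold lower in WT and Jarid2 null endoderm, each bound set at 3 counts over both libraries. The adjusted p ranged from 1.1e-10 to 1.9e-07 in edgeR over these 4 comparisons. Mtf2 null cells kept a few reads at 48 h, 0.273 and 0.238 CPM in mesoderm and 0.299 and 0.628 in endoderm. Their log2 fold changes were -7.41 ± 0.33 (adjusted p = 3.1e-11) in mesoderm and -4.89 ± 0.38 (2.0e-08) in endoderm. Of all genes, 4.16%, 3.41% and 7.79% were called between 24 and 48 h in WT, Mtf2 null and Jarid2 null mesoderm, and 3.88%, 3.84% and 3.03% in endoderm.

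Some other genes of the caudal programme rose and fell over the same course. Of 24 genes of caudal progenitors and of Wnt, FGF and retinoid signalling, 19 were tested in mesoderm, and 8 rose and 3 fell in WT from undifferentiated to 24 h, with a median log2 fold change of 2.84 against 0.01 over all genes. T rose by 8.22 ± 0.47, the Wnt ligand Wnt3 by 6.02 ± 0.77, Nkx1-2, a marker of axial progenitors, by 5.11 ± 0.49 and Sp5, a direct Wnt target, by 4.93 ± 0.29. From 24 to 48 h 7 of the 19 fell, with Sp5 down to a log2 difference of -10.96, T of -10.26 and Nkx1-2 of -9.84, while Fgf4 rose by 1.30. In WT endoderm 7 of 22 rose and 1 fell to 24 h, and 7 fell from there to 48 h. Over the same step of mesoderm differentiation 9 of 15 trophoblast genes rose, among them Gata3 (5.39) and Hand1 (4.60), which mesoderm also uses, while Cdx1 and Cdx2 fell.

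Cdx2 also rose from the undifferentiated state and fell by 48 h, at a lower level. In WT mesoderm it stood at 0.0985 and 0.170 CPM undifferentiated, 5.24 and 3.66 at 5 h, 4.52 and 4.52 at 24 h, and 0.0654 and 0.408 at 48 h. In WT endoderm it was at 0.0947 and 0, 1.78 and 1.34, 1.89 and 2.04, and 0 and 0.0942. Cdx2 was thus near its highest level already at 5 h, when Cdx1 had not reached its own. The step from 5 to 24 h in WT mesoderm was a contrast added after the values had been seen. For Cdx2 it was 0.02 ± 0.31 on the log2 scale (adjusted p = 0.994, edgeR). For Cdx1 it was 1.37 ± 0.21 (adjusted p = 9.9e-05, edgeR), which was called, among 4.41% of genes called.

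From undifferentiated to 24 h Cdx2 rose in mesoderm by a ratio of 33 in WT (exact 95% interval of the summed counts 11.0 to 162, 112 against 3 counts), where edgeR gave an adjusted p of 3.9e-07. It rose by 3.68 ± 0.44 on the log2 scale in Mtf2 null (4.4e-06) and by a ratio of 7.89 in Jarid2 null (2.40 to 40.9, adjusted p = 9.1e-04). The Jarid2 null call was lost without any 1 of the 4 libraries (adjusted p 0.00259 to 0.0148), with a replicate block (0.00118) and in DESeq2 (0.00915). In endoderm the ratio was 41.9 in WT (7.22 to 1682, 58 against 1 counts, adjusted p = 1.4e-04), a call lost without replicate 2 at either time (up to 0.00608) and in DESeq2 (0.00341). In Mtf2 null endoderm the log2 difference was 0.41 ± 0.63 (adjusted p = 0.711) and in Jarid2 null 2.87 ± 0.62 (0.0015), neither of them called. Intervals of ratios cover counting error only.

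From 24 to 48 h Cdx2 fell in WT mesoderm by 4.29 ± 0.45 on the log2 scale (adjusted p = 6.8e-07, edgeR) and in Mtf2 null by 3.54 ± 0.42 (4.4e-06), and in Jarid2 null, which began lower, the difference of -1.96 ± 0.54 was not called (0.00795). In Jarid2 null endoderm it was at least 18.5-fold lower at 48 h (adjusted p = 4.2e-05), a call lost without either 48 h library (up to 0.00196). In WT endoderm the ratio was 0.0229 (0.000570 to 0.133, adjusted p = 2.1e-04), and that call was lost without any 1 of the 4 libraries (up to 0.00644) and in DESeq2 (0.00456). In Mtf2 null endoderm it was 0.145 (0.0274 to 0.497), which edgeR did not call (0.027). Cdx1 and Cdx2 therefore shared the course in WT, with the smaller counts of Cdx2 leaving more of its steps to single libraries.

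Per kilobase of exon, the highest mean of Cdx1 was 25.8 ± 1.31 CPM per kb (SD, n = 2) in Mtf2 null mesoderm at 24 h and 10.8 ± 1.17 in WT at the same time. Cdx2 reached 2.25 in Mtf2 null mesoderm at 5 h and 2.00 in WT mesoderm at 24 h, and Cdx4 0.236 in mesoderm and 0.237 in endoderm. Cdx1 was the most abundant of the 3 genes at 24 h on this scale in WT of both series, with 3.34 for Cdx1 and 0.870 for Cdx2 in endoderm.

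The question of the directed series was what the loss of MTF2 or of JARID2 does to genes of the early germ layers, and for the Cdx genes the answer differed by gene. Without MTF2, Cdx1 was higher from the undifferentiated state on. The Mtf2 null mesoderm libraries held 5.70 and 6.43 CPM undifferentiated, 35.9 and 35.5 at 5 h and 43.5 and 46.8 at 24 h, and the endoderm libraries 6.02 and 4.80, 13.3 and 11.2, and 13.8 and 14.5. At each of these times both Mtf2 null libraries lay above both WT libraries.

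In mesoderm Cdx1 was 6.58-fold higher in undifferentiated Mtf2 null cells (log2 fold change 2.72 ± 0.32, adjusted p = 2.0e-06), 4.88-fold at 5 h (2.29 ± 0.20, 1.2e-07) and 2.39-fold at 24 h (1.26 ± 0.19, 5.9e-05). In endoderm it was 4.39-fold higher undifferentiated (2.14 ± 0.37, 1.1e-04) and 3.31-fold at 5 h (1.73 ± 0.29, 1.2e-04), and the 2.43-fold difference at 24 h missed the threshold (1.28 ± 0.27, 0.00126). At 48 h the summed counts of 6 against 0 and of 13 against 0 made Cdx1 at least 2.33-fold higher in mesoderm and at least 3.47-fold higher in endoderm, without a call (adjusted p 0.0173 and 0.00557). Cdx1 was thus called in 5 of 8 comparisons of Mtf2 null with WT, each time higher. The background was high, since 11.1%, 7.56%, 5.72% and 6.82% of genes were called at the 4 times in mesoderm and 11%, 7.61%, 6.58% and 10.5% in endoderm. With the 12 undifferentiated libraries of both series in 1 fit, Cdx1 was 5.39-fold higher (2.43 ± 0.31, adjusted p = 8.8e-06) among 14% of genes called, and stayed called without any single library (3.2e-05 to 6.5e-05).

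The undifferentiated and 5 h calls in mesoderm held without any 1 library (adjusted p up to 9.5e-05 and 7.9e-06). The 24 h call in mesoderm was lost without Mtf2 null replicate 2 (0.00157) or WT replicate 2 (0.00372). In endoderm the undifferentiated call was lost without Mtf2 null replicate 1 or either WT library, and the 5 h call likewise, with adjusted p up to 0.00337 and 0.00439 in edgeR. The direction stayed the same in each of these fits.

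**Figure D1:**
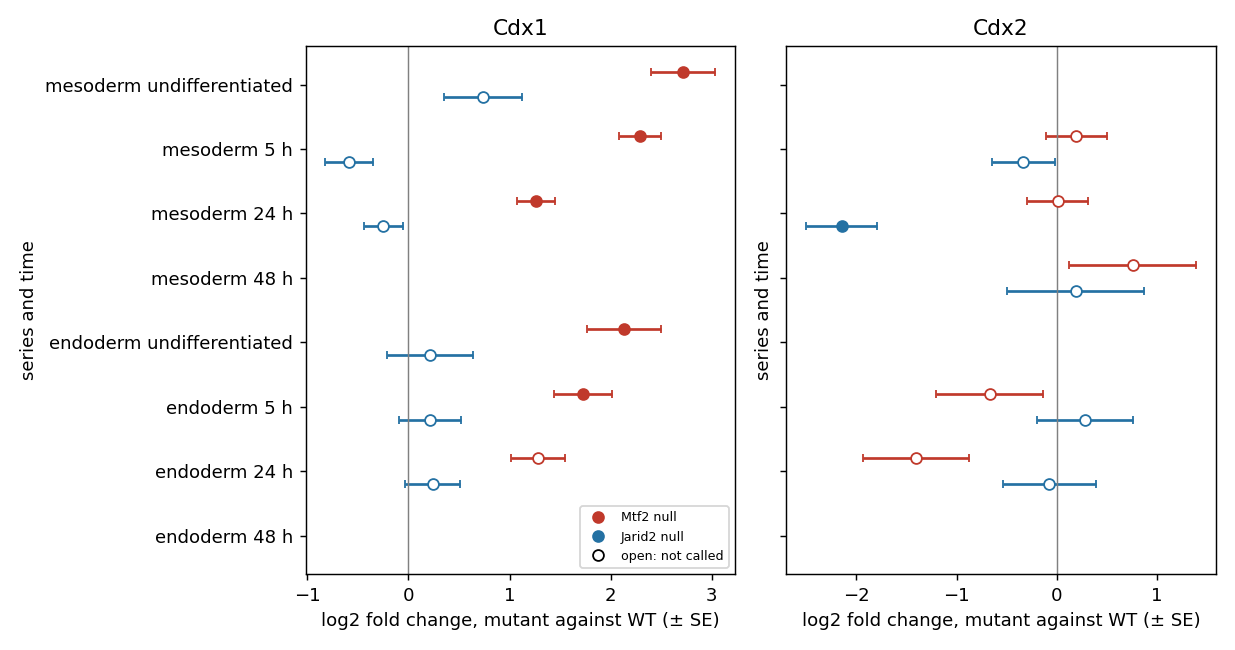
Log2 fold change of Cdx1 and Cdx2 in Mtf2 null or Jarid2 null against WT on the horizontal axes, with bars of 1 standard error, by series and time on the vertical axes; filled points were called (adjusted p under 0.001 and log2 fold change beyond 1) and open points were not, and comparisons with 3 or fewer counts in a group are not drawn. Cdx1 in Mtf2 null lies between 1.26 and 2.72 at the first 3 times of both series, and the filled point of Cdx2 is Jarid2 null mesoderm at 24 h, at -2.15.

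Loss of JARID2 left Cdx1 near WT. The Jarid2 null libraries held 1.91 and 1.13 CPM undifferentiated, 4.82 and 4.86 at 5 h, 15.1 and 16.6 at 24 h and 0 at 48 h in mesoderm, and 2.07 and 0.692, 4.16 and 4.41, 5.69 and 8.04, and 0 in endoderm. On the log2 scale the differences from WT were 0.74 ± 0.39, -0.59 ± 0.24 and -0.25 ± 0.19 at the first 3 times in mesoderm and 0.21 ± 0.43, 0.21 ± 0.30 and 0.24 ± 0.28 in endoderm. By edgeR Cdx1 was called in 0 of 8 comparisons of Jarid2 null with WT, with 1 of them at an unadjusted p under 0.05, and DESeq2 called 0. The undifferentiated libraries of both series together gave 0.43 ± 0.34 (adjusted p = 0.426), among 1.07% of genes called. In this mutant few genes were called at all, 0.37%, 0%, 1.97% and 0.169% at the 4 times in mesoderm and 0.742%, 0.0363%, 0.0312% and 0.125% in endoderm. The 1.97% at 24 h, 362 genes, became 27 without Jarid2 null replicate 1 and 63 and 60 without WT replicate 1 or 2. At 5 h of mesoderm, where edgeR called 0 genes, 2672 had an unadjusted p under 0.05 and DESeq2 called 11.

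Cdx2 was lower in Jarid2 null mesoderm at 24 h. Its libraries held 0.832 and 1.22 CPM against 4.52 and 4.52 in WT, a fold of 0.23 (log2 fold change -2.15 ± 0.36, adjusted p = 3.5e-04), and the groups did not overlap. The call rested on the spread shared over the whole series and on every library. It was lost on leaving out WT replicate 1, WT replicate 2, Jarid2 null replicate 1 or Jarid2 null replicate 2 (log2 fold change -1.89 to -2.36, adjusted p 0.00167 to 0.0211), and in a fit of the WT and Jarid2 null groups alone (-2.10, 0.00494). At 5 h the Jarid2 null libraries held 3.52 and 3.55 CPM, a log2 difference from WT of -0.33 ± 0.32 (adjusted p = 0.679), so Cdx2 came up in this mutant and was lower again at 24 h. In the contrast added after the values had been seen, Cdx2 fell in Jarid2 null from 5 to 24 h by 1.80 ± 0.37 (adjusted p = 5.3e-04, among 10.4% of genes called), a call lost without any 1 of its 4 libraries (up to 0.0175) and in DESeq2. The difference from the WT step, -1.81 ± 0.48, was not called (adjusted p = 0.041), with 0.0163% of genes called.

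Other genes of the caudal programme were lower in the same comparison. Of 19 tested, 4 fell and 0 rose, with a median of -0.91 against -0.04 over all genes. Nkx1-2 fell by 3.13 ± 0.39 (0.680 to 1.59 CPM against 9.05 to 10.6 in WT, adjusted p = 4.8e-05), Fgf4 by 1.91 ± 0.12 (23.6 to 26.1 against 93.0 to 93.2, 1.5e-08), Fgf17 by 1.60 ± 0.28 (1.44 to 2.53 against 5.42 to 6.35, 5.6e-04) and Sp5 by 1.28 ± 0.20 (7.94 to 9.73 against 20.9 to 21.8, 3.5e-04). Nkx1-2 marks axial progenitors, Fgf4 and Fgf17 are FGF ligands, and Sp5 answers to Wnt. No gene of the Hox, trophoblast, intestinal or ParaHox lists was called there by edgeR, with 3 of 6, 7 of 15, 1 of 5 and 1 of 5 tested genes at an unadjusted p under 0.05. T, the marker of the streak, was at 22.0 to 39.8 CPM in Jarid2 null against 55.6 to 59.8 in WT, and the summed CPM of 4 streak markers at 23.7 to 41.5 against 56.6 to 60.8. Pluripotency markers (851 to 931 against 1132 to 1186), neural markers (7.33 to 8.70 against 9.41 to 11.1) and germ cell markers (11.2 to 14.7 against 15.9 to 18.8) were lower too, and trophoblast markers were higher (14.9 to 17.5 against 10.9 to 11.4). These markers moved with Cdx2 at this time, and their part in its level was not tested.

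In the other comparisons of Cdx2 no call was made. Mtf2 null mesoderm held 4.36 and 5.83 CPM at 5 h and 4.66 and 4.43 at 24 h, with log2 differences from WT of 0.20 ± 0.30 (adjusted p = 0.692) and 0.01 ± 0.31 (0.994), beside Cdx1 that rose in the same libraries. At 48 h it held 0.273 and 0.475 CPM (0.76 ± 0.63, 0.456), and Jarid2 null held 0.190 and 0.304 (0.19 ± 0.68, 0.954). In Mtf2 null endoderm Cdx2 stood at 0.472 and 1.47 CPM at 5 h and 0.462 and 0.980 at 24 h, below the WT libraries at 24 h, and its log2 differences were -0.67 ± 0.53 (0.38) and -1.41 ± 0.53 (0.0553). Jarid2 null endoderm stood at 1.57 and 2.24 and at 2.29 and 1.45 CPM, which gave 0.28 ± 0.48 (0.961) and -0.08 ± 0.46 (0.99). By edgeR Cdx2 was called in 0 of 8 comparisons of Mtf2 null with WT, with 2 at an unadjusted p under 0.05, and DESeq2 called 0.

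The undifferentiated cells held few Cdx2 reads. Mtf2 null had 7 against 3 counts in WT mesoderm, a ratio of 2.51 (exact interval 0.573 to 15.0, adjusted p = 0.271), and 13 against 1 in endoderm, a ratio of 11.7 (1.76 to 497, 0.0197). Jarid2 null had 3 against 3 counts in mesoderm (0.927, 0.124 to 6.92) and 7 against 1 in endoderm (5.22, 0.670 to 235). At 48 h of endoderm Mtf2 null had 3 against 1 counts (2.40, 0.193 to 126) and Jarid2 null 0 against 1. None of these was called. The interval of the 13 against 1 counts lay above 1 (unadjusted p = 0.00655, edgeR). The other intervals included 1, and with so few reads a difference was not detectable there at this depth.

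The change from undifferentiated to 24 h was compared between genotypes. For Cdx1 it was smaller in Mtf2 null than in WT mesoderm by 1.46 ± 0.38 on the log2 scale (adjusted p = 0.0143) and in endoderm by 0.85 ± 0.46 (0.242), and the differences for Jarid2 null were -0.98 ± 0.43 (0.173) and 0.03 ± 0.54 (1). For Cdx2 the adjusted p was 0.387 and 0.0102 for Mtf2 null in mesoderm and endoderm and 0.309 and 0.608 for Jarid2 null. Neither gene was called in these interaction contrasts, in which 2.27% and 2.36% of genes were called for Mtf2 null and 0.136% and 0.0675% for Jarid2 null.

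The mesoderm and endoderm courses were compared by the same kind of contrast, since the libraries of each series were made apart. The rise of Cdx1 to 24 h was larger in mesoderm by 2.13 ± 0.53 on the log2 scale in WT, 1.52 ± 0.35 in Mtf2 null and 1.10 ± 0.45 in Jarid2 null, but none passed the threshold (adjusted p 0.551, 0.194 and 0.199, edgeR), so a difference between the lineages was not shown. For Cdx2 the adjusted p was 1, 0.257 and 1. In these contrasts 0.0153%, 0% and 0.112% of all genes were called in WT, Mtf2 null and Jarid2 null. For Mtf2 null edgeR called 0 genes, with 790 at an unadjusted p under 0.05, and DESeq2 called 3. To 48 h the difference of Cdx1 in Mtf2 null was -1.01 ± 0.76 (0.724), those of WT and Jarid2 null could not be fitted with 0 reads, and Cdx2 had an adjusted p of 0.942, 0.344 and 0.036, with 1.35%, 0.617% and 1.97% of genes called.

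Cdx4 was near the limit of detection in every directed library. It had 0 to 8 counts per library in mesoderm, 59 over 24 libraries, and 0 to 11 in endoderm, 68 over 24. The highest group means were 0.462 ± 0.150 CPM (SD, n = 2) in Mtf2 null mesoderm at 5 h and 0.466 ± 0.466 in Jarid2 null endoderm at 5 h, and the undifferentiated WT and Jarid2 null libraries of the mesoderm series had 0 reads. It was removed by the filter on low counts. Without that filter it was called in 0 of 18 comparisons of a mutant with WT in edgeR, where its lowest adjusted p was 0.347 and its lowest unadjusted p 0.0369.

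In the order of levels, Cdx1 in mesoderm ran from Mtf2 null at 24 h (45.1 ± 2.29 CPM, SD, n = 2) and 5 h (35.7 ± 0.278) to WT (18.9 ± 2.05) and Jarid2 null (15.9 ± 1.08) at 24 h, and these 4 neighbours did not overlap. WT at 5 h (7.35 ± 2.60) overlapped undifferentiated Mtf2 null (6.06 ± 0.518), so the levels of Mtf2 null ESCs and of WT cells at 5 h were not set apart by their spread. In endoderm Mtf2 null at 24 h (14.2 ± 0.441) and 5 h (12.3 ± 1.46) led, and Jarid2 null at 24 h (6.86 ± 1.66), WT at 24 h (5.84 ± 1.30) and undifferentiated Mtf2 null (5.41 ± 0.864) were not set apart by their spread. For Cdx2 in mesoderm, Mtf2 null at 5 h (5.09 ± 1.04), Mtf2 null at 24 h (4.54 ± 0.158), WT at 24 h (4.52 ± 0.00206) and WT at 5 h (4.45 ± 1.12) could not be ordered, and Jarid2 null at 24 h (1.02 ± 0.272) stood apart below Jarid2 null at 5 h (3.54 ± 0.0227). In endoderm the 7 highest groups of Cdx2, from 1.97 ± 0.110 in WT at 24 h to 0.551 in undifferentiated Mtf2 null, overlapped from each to the next.

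The lists around the Cdx genes were counted in the comparisons of Mtf2 null with WT, in which Cdx1 rose. In undifferentiated mesoderm libraries 5 of 15 trophoblast genes rose and 0 fell, among them the keratin Krt18 (2.18 ± 0.30), the FGF receptor Fgfr2 (2.00), Id2 (1.74) and Tfap2c (1.49), with a median of 0.54 against -0.02 over all genes. In the undifferentiated endoderm libraries 5 rose as well. Of all genes 11.1% and 11% were called in the mesoderm and endoderm comparison. The summed level of 4 trophoblast markers was 20.7 to 25.4 CPM in undifferentiated WT mesoderm libraries against 56.58 to 56.6 in Mtf2 null, most of it Tfap2c (15.1 to 21.0 against 49.7 to 51.4), and that of 3 endoderm markers 1.11 to 2.17 against 10.4 to 15.1. None of the 4 trophoblast markers, Elf5, Gata3, Krt7 and Tfap2c, was at 0. In the same libraries the sum of 4 cardiac mesoderm markers was 9.12 to 10.4 against 43.3 to 47.5 CPM, of 3 germ cell markers 12.7 to 14.8 against 44.2 to 49.6 and of 4 pluripotency markers 1227 to 1438 against 1539 to 1553. Neural markers (11.3 to 11.9 against 5.88 to 6.12) and streak markers (1.38 to 1.79 against 0.726 to 1.03) were lower in Mtf2 null, and vascular markers overlapped. These markers moved with Cdx1 and their part in its level was not tested.

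At 5 h of mesoderm differentiation, where 7.56% of all genes were called, 3 of 19 caudal progenitor genes rose in Mtf2 null with Cdx1. The Wnt ligand Wnt8a rose by 3.88 ± 0.56 (4.27 to 4.54 CPM against 0.209 to 0.361, adjusted p = 2.9e-05), Lef1, a nuclear partner of beta-catenin, by 2.72 ± 0.30 and Sp5 by 1.14 ± 0.22, with a median of 0.56 over the list. In endoderm at 5 h 1 of 22 rose, again Wnt8a (3.79 ± 0.46, 4.15 to 5.00 CPM against 0.309 to 0.335), a share below the 7.61% of all genes called there. In undifferentiated cells the Wnt target Axin2 was the gene of this list that was called, down by 1.47 in mesoderm and 1.65 in endoderm libraries, where Cdx1 rose. Of all genes 11.1% and 11% were called there. At 24 h of endoderm 3 of 22 fell and 1 rose, where 6.58% of all genes were called. T fell by 2.75 ± 0.27 (3.60 to 3.69 CPM against 22.3 to 27) while both Mtf2 null libraries lay above WT in Cdx1. Nkx1-2 (-2.65) and Sp5 (-1.87) fell as well, the retinoid-degrading enzyme Cyp26a1 rose, and the median of the list was -0.07 against -0.00 over all genes.

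Most of the central and posterior Hox genes had too few reads to be tested in the directed series. Of 24 such genes 6 were tested in each series, and 1 of them, Hoxb9, fell in Mtf2 null at 24 h (-2.48 in mesoderm, -3.47 in endoderm). Of all genes 5.72% and 6.58% were called in these comparisons. Of 11 intestinal genes 5 and 4 were tested. Of the 8 ParaHox genes and neighbours of the Cdx genes 5 were tested, and Pdgfrb, which lies beside Cdx1, fell in undifferentiated Mtf2 null endoderm libraries (-2.34) and at 48 h of mesoderm (-3.30). In those undifferentiated libraries Cdx1 rose while its neighbour fell. Slc6a7, on the other side of Cdx1, fell in WT endoderm from 24 to 48 h (-3.06), as Cdx1 did. At 48 h of endoderm, where 10.5% of all genes were called, Mtf2 null had 7 of 15 trophoblast genes up, led by Tfap2c (3.93) and Krt8 (2.99). Hnf4a (4.85) and Lgals4 (2.91) of the intestinal list and Hoxa10 (5.34) rose too, and endoderm markers summed to 48.2 to 56.6 CPM against 0.780 to 0.848 in WT.

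Genes were ranked by the correlation of their log2 CPM with that of each Cdx gene over the 24 libraries of a series, as a description, since these libraries share genotypes and times. Most alike to Cdx1 in mesoderm were Il17rd (r = 0.979), 1110038B12Rik (0.923), En2 (0.922), Epha2 (0.920) and Qtrt1 (0.914), and in endoderm Ntn1 (0.960), Tfcp2l1 (0.946), Ror2 (0.933), Id3 (0.915) and Nkx6-2 (0.906). Most alike to Cdx2 were Jag1 (0.942), Grsf1 (0.929), Adat2 (0.921), Sall3 (0.920) and Znrf3 (0.915) in mesoderm, and 2510009E07Rik (0.879), Aff1 (0.862), Pllp (0.853), Sp5 (0.852) and Hmga2 (0.849) in endoderm. None of the 5 nearest genes was shared between the 2 series for either Cdx gene.

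In the single cells Cdx1 was found mostly at day 0, in undifferentiated cells, and Cdx2 in embryoid bodies of days 7 and 10. The 16 libraries held 4949 cells in 22 clusters, with 202 to 347 cells each and a median of 4997 to 10603 molecules (UMIs) per cell. Over all cells Cdx1 had 103 UMIs in 78 cells and Cdx2 41 UMIs in 32 cells, with at most 5 and 4 in 1 cell, and a single cell held both. With 1 library per genotype and day, genotypes were compared within a day by these counts and their intervals, with no test over libraries. Intervals are exact Poisson for UMI CPM and Clopper-Pearson for shares of cells, at 95%, and cover counting error only. For a group of cells without any UMI, the upper limit given is 3 counts over the number of cells, which bounds cells with a UMI, not cells that express the gene. The libraries reuse the same 384 well barcodes, and the 4949 cell names are distinct.

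At day 0 Cdx1 stood at 12.6 UMI CPM, that is UMIs scaled to the CPM scale within a library (9.32 to 16.7) in Mtf2 null, from 49 UMIs in 32 of 347 cells, or 9.22% (6.39 to 12.8). It stood at 5.60 (3.37 to 8.74) in Eed null, from 19 UMIs in 16 of 340 cells, or 4.71% (2.71 to 7.53). In Jarid2 null it was at 1.56 (0.506 to 3.63) from 5 UMIs, and in WT at 1.00 (0.207 to 2.93) from 3 UMIs in 3 of 340 cells, or 0.882%. The intervals of Mtf2 null and Eed null thus lay above that of WT, and that of Jarid2 null overlapped it.

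The ratio to WT was 12.6 (4.05 to 63) for Mtf2 null, 5.58 (1.64 to 29.4) for Eed null and 1.55 (0.302 to 9.99) for Jarid2 null. Median UMIs per cell at day 0 were 10603 in Mtf2 null, 9374.5 in Eed null, 9505 in Jarid2 null and 8447 in WT, so depth moved in part with Cdx1. After each cell was thinned to 2500 UMIs, Cdx1 was in 9 of 338 Mtf2 null cells or 2.66% (1.22 to 4.99), 3 of 323 Eed null cells or 0.929% (0.192 to 2.69), 1 of 307 Jarid2 null cells and 0 of 325 WT cells, which allows a share with a UMI of up to 0.923% and has a Clopper-Pearson upper bound of 1.13%. At this equal depth the interval of Mtf2 null lay above that of WT, and that of Eed null overlapped it. In the cells of these libraries Mtf2 was at 53.7 to 61.1 UMI CPM in Mtf2 null against 365 to 793 in WT, and Eed at 1.33 to 11.5 in Eed null against 115 to 478. Mtf2 null was also above WT in the undifferentiated directed libraries, a series without Eed null cells.

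**Figure D2:**
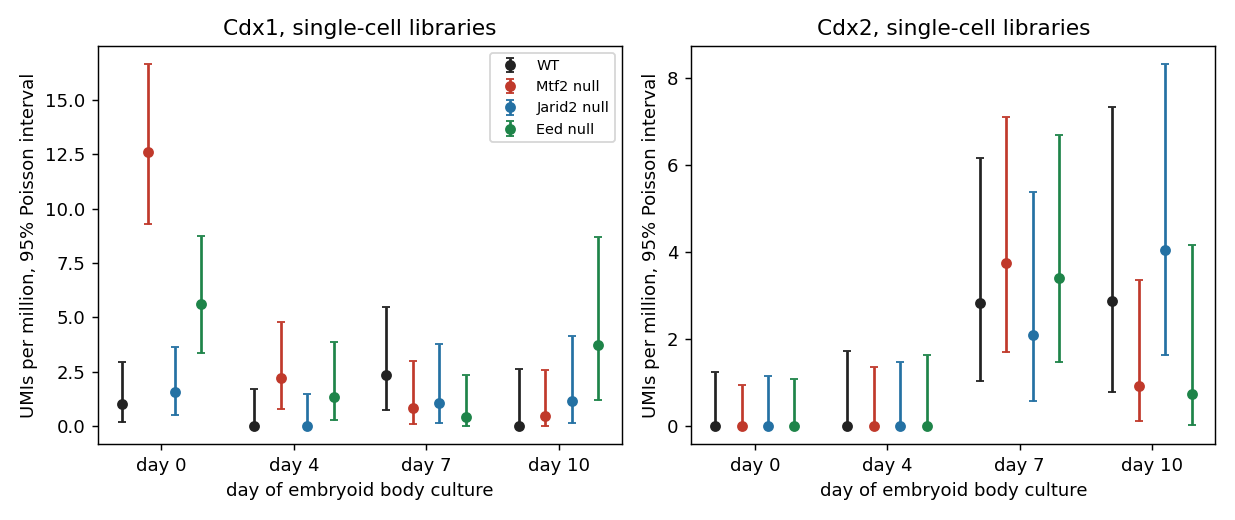
UMI CPM of Cdx1 and Cdx2 on the vertical axes by day and genotype in the single-cell libraries; each point is 1 library and bars are exact 95% Poisson intervals. Cdx1 is highest in Mtf2 null at day 0 (12.6) with Eed null next (5.60), and Cdx2 is at 0 in every library of days 0 and 4.

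After day 0 Cdx1 was rare. At day 4 Mtf2 null held 6 UMIs (2.20 UMI CPM, 0.806 to 4.78) and Eed null 3 (1.33), and WT and Jarid2 null 0. At day 7 WT held 5 (2.35), Mtf2 null and Jarid2 null 2 each and Eed null 1, and at day 10 Eed null held 5 (3.73), Jarid2 null 2, Mtf2 null 1 and WT 0. Summed over genotypes there were 76 UMIs at day 0 (5.64 UMI CPM) and 9, 10 and 8 at the later days. The excess in Mtf2 null was thus seen at day 0, and at days 7 and 10 the counts were too few to order the genotypes.

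Cdx2 had 0 UMIs in 1364 cells of day 0, which allows a share with a UMI of up to 0.220%, and in 1303 cells of day 4 (0.230%). At day 7 it stood at 2.83 UMI CPM in WT (1.04 to 6.15, 6 UMIs), 3.74 in Mtf2 null (1.71 to 7.10, 9 UMIs), 3.40 in Eed null (8 UMIs) and 2.10 in Jarid2 null (4 UMIs). At day 10 it stood at 2.86 in WT, 0.926 in Mtf2 null, 4.03 in Jarid2 null and 0.746 in Eed null, from 4, 2, 7 and 1 UMIs. Against WT at day 7 the ratios were 1.32 (0.421 to 4.52), 1.20 (0.366 to 4.20) and 0.743 (0.154 to 3.13) for Mtf2 null, Eed null and Jarid2 null, so a difference between genotypes was not detectable at this depth.

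The clusters are those the authors deposited, and a cluster against the rest is no test. Cdx1 was densest in cluster 0, with 49 UMIs in 34 of 386 cells, or 8.81% (6.18 to 12.1), at 12.4 UMI CPM (9.15 to 16.3). Of these cells 302 were Mtf2 null cells of day 0 and held 46 of the UMIs, and 45 Jarid2 null cells of day 0 held 0. The leading list genes of the cluster were those of pluripotent cells, with Nanog at 268, Fgf4 at 226 and Esrrb at 206 UMI CPM, and T at 0. Cluster 6, with 280 Eed null cells of day 0, held 16 UMIs in 13 of 303 cells, or 4.29%, all of them in those 280 cells. The Cdx1 UMIs of day 0 thus lay mostly in a cluster with the genes of undifferentiated ESCs and without T.

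A separate source of Cdx1 was cluster 14, with 9 UMIs in 7 of 190 cells, or 3.68%, at 6.11 UMI CPM (2.79 to 11.6). It had the genes of the primitive streak, with Cyp26a1 at 603, Eomes at 535 and T at 535 UMI CPM, and 91 WT cells of day 7 in it held 5 of the UMIs. Cluster 13 held 7 UMIs in 3 of 226 cells, with 3 of the UMIs in 1 Mtf2 null cell of day 0. A cluster rich in the neural genes Sox1 (177) and Pax6 (112), cluster 15, served as a cell type that should lack Cdx1, and it had 0 of 136 cells with a UMI, which allows up to 2.21%, at a median of 5860 UMIs per cell. Since the other clusters held few Cdx1 UMIs as well, this 0 says little on its own.

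**Figure D3:**
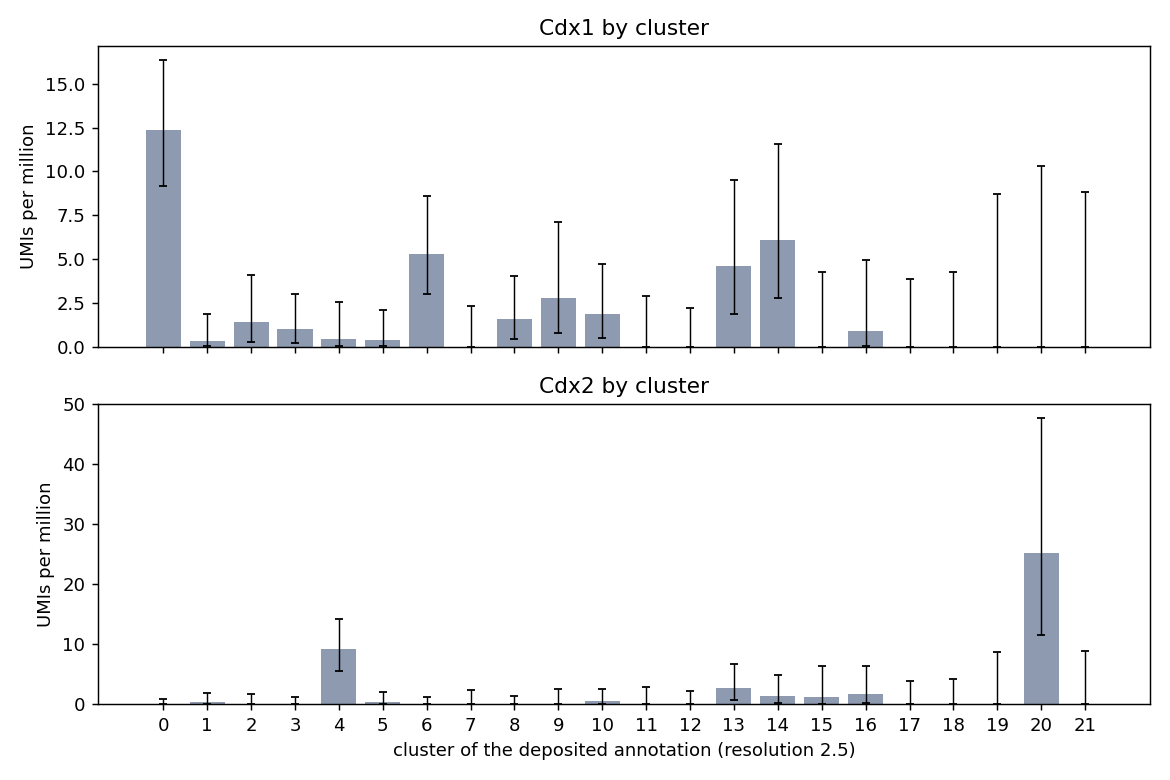
UMI CPM of Cdx1 and Cdx2 (bars, vertical axes) in the 22 deposited clusters of single cells (horizontal axis), summed over genotypes and days, with exact 95% Poisson intervals. Cdx1 is highest in cluster 0 (12.4) and Cdx2 in cluster 20 (25.1) and cluster 4 (9.17).

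Cdx2 came from different clusters. Cluster 20 held 9 UMIs in 7 of 49 cells, or 14.3% (5.94 to 27.2), at 25.1 UMI CPM (11.5 to 47.7), against 1 of 136 cells, or 0.735%, in the neural cluster 15. Its cells carried the genes of caudal progenitors, with T at 616.4, Fgf8 at 346, Cyp26a1 at 321 and Lin28a at 293 UMI CPM, and posterior Hox genes, with Hoxd9 at 78.1, Hoxa9 at 50.2, Hoxc10 at 50.2 and Hoxc6 at 47.4. Of its Cdx2 UMIs 5 were in 22 Eed null cells of day 7 and 2 in 9 Mtf2 null cells of day 7, while 10 WT cells of day 7 held 0. Cluster 4 was rich in Hand1 (750 UMI CPM), Id2 (526), Krt8 (496) and Tbx20 (128). Hand1 and Tbx20 are among the cardiac mesoderm markers, and Hand1, Id2 and Krt8 are on the list of trophoblast genes. The cluster held 20 Cdx2 UMIs in 13 of 324 cells, or 4.01% (2.15 to 6.76), at 9.17 UMI CPM (5.60 to 14.2). There the UMIs came from WT as well as from mutant cells, with 5 in 32 WT cells of day 7, 4 in 90 WT cells of day 10, 6 in 79 Mtf2 null cells of day 7 and 3 in 33 Jarid2 null cells of day 10. The vascular cluster 19, of 57 cells, held 0 UMIs of both genes.

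The bulk samples showed Cdx1 mostly at day 0, in undifferentiated cells, and Cdx2 in embryoid bodies of days 4 and 7. Values are CPM from reads recovered out of the deposited table. In the library labelled Eed null Cdx1 was at 15.2, 2.00, 0.880 and 2.02 at days 0, 2, 4 and 7, against 1.60, 0.0963, 0.820 and 0.304 in J1. In that labelled Jarid2 null it was at 18.0, 0.173, 2.09 and 0.263, against 1.82, 0.632, 0.443 and 0.983 in JM8. In that labelled Mtf2 null it was at 1.53, 3.37, 0.712 and 2.29, against 2.67, 0.887, 0.164 and 1.05 in Pcl1-3 WT. The day 0 value of the line labelled Mtf2 null rests on 1 of its 2 columns, since the other could not be turned into whole reads; in deposited units that column listed 4.02 for Cdx1 and 1.00 for Cdx2. The day 0 libraries labelled Eed null and Jarid2 null thus stood far above the other 4 day 0 libraries, which lay between 1.53 and 2.67.

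The order at day 0 differed from that in the directed and single-cell libraries, where Mtf2 null was high and Jarid2 null near WT. The Mtf2 transcript was lower in the line labelled Mtf2 null than in Pcl1-3 WT at each day (317, 237, 231 and 164 against 415, 442, 325 and 384 CPM). In the line labelled Jarid2 null it was at 127 at day 0 against 302 in JM8, and at 423, 185 and 171 against 347, 194 and 187 at the later days. At day 0 Mtf2 was thus lower in the library labelled Jarid2 null than in that labelled Mtf2 null, which stood above JM8. The line labelled Mtf2 null also stayed above the 30.2 to 38.2 CPM of the directed Mtf2 null mesoderm libraries, which were prepared in another way. The Mtf2 transcript therefore does not check the Mtf2 null label at day 0. Eed was at 58.2 to 206 in the libraries labelled Eed null and at 52.5 to 246 in J1, and Jarid2 at 221 to 662 in those labelled Jarid2 null against 277 to 642 in JM8, so these transcripts do not check their labels. In limma with day as a block, Cdx1 was called in none of the lines. The differences were 2.06 ± 0.77 on the log2 scale for the Eed null label (adjusted p = 0.0905, unadjusted p = 0.0148, above J1 at each of the 4 days), 0.62 ± 0.77 for the Jarid2 null label (0.639) and 0.83 ± 0.77 for the Mtf2 null label (0.487). Without day 0 the value for the Jarid2 null label was -0.22. Leaving out 1 day at a time gave 0.52 to 1.33 for the Mtf2 null label. Of all 15837 genes tested, 10.9%, 14.8% and 18.4% were called at an adjusted p under 0.05, that is 1731, 2347 and 2910 genes, which fell to 284, 758 and 1054 without day 4.

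Cdx2 was at 1.25, 0.523, 3.81 and 3.39 CPM in the line labelled Eed null and at 0.178, 0, 11.2 and 15.1 in J1. It was at 0.134, 0.0864, 15.0 and 35.6 in that labelled Jarid2 null against 0, 0, 1.48 and 18.9 in JM8, and at 0, 0.299, 1.42 and 5.64 in that labelled Mtf2 null against 0.0684, 0, 0.492 and 1.05 in Pcl1-3 WT. Cdx2 was highest at day 7 in 5 of the 6 lines. The 3 WT lines alone spanned 1.05 to 18.9 at that day. In limma the differences were 0.06 ± 0.81 (adjusted p = 0.969), 1.35 ± 0.81 (0.283) and 1.09 ± 0.81 (0.371) on the log2 scale, none of them called. Cdx4 had 0 to 13 reads per sample, the 13 in J1 at day 4 (1.33 CPM), and was not tested.

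**Figure D4:**
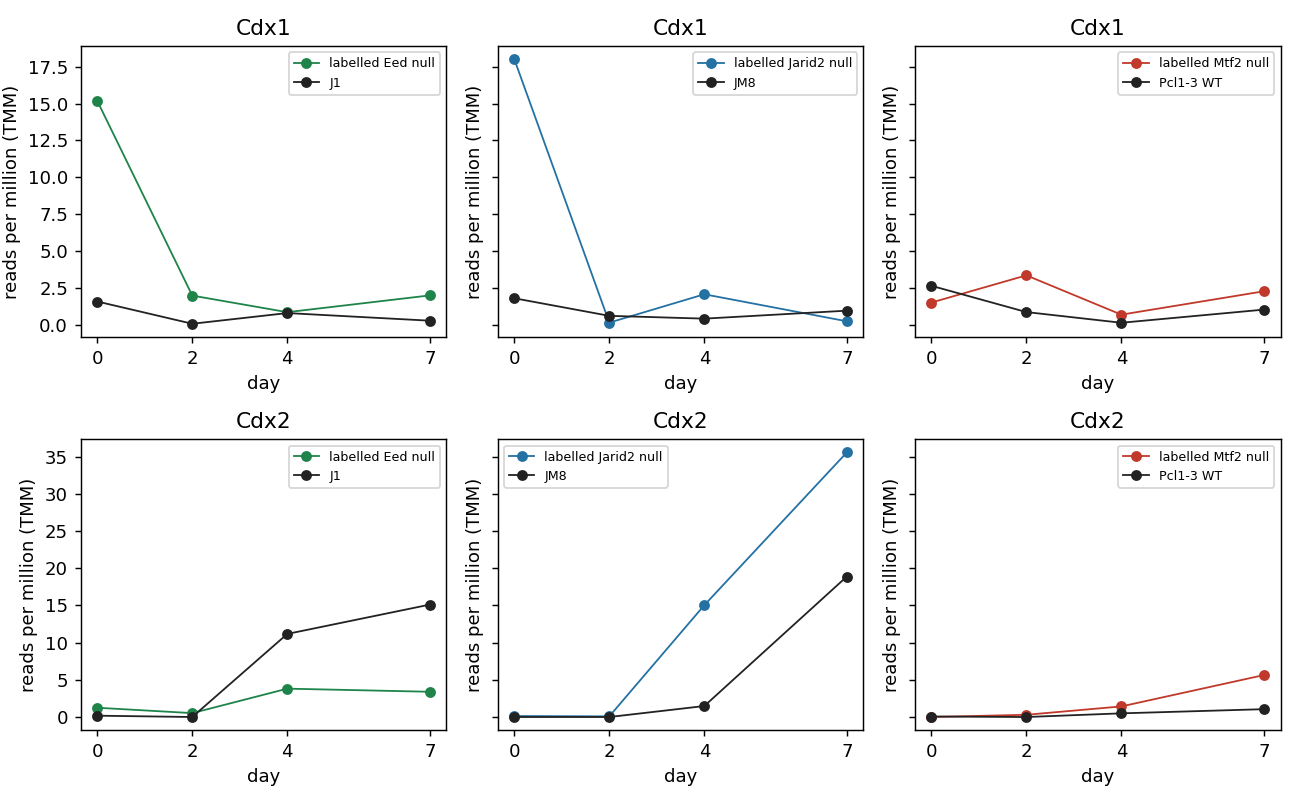
CPM of Cdx1 and Cdx2 (vertical axes) in the bulk embryoid body course by day (horizontal axes), where day 0 is undifferentiated cells. Each line labelled with a mutant is beside its matched WT line, with 1 sample per point. Cdx1 starts at 15.2 and 18.0 in the lines labelled Eed null and Jarid2 null and at 1.53 in that labelled Mtf2 null, and Cdx2 reaches 35.6 in that labelled Jarid2 null at day 7.

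The Hox genes downstream were measured better in embryoid bodies, where 23 of the 24 central and posterior ones were tested. Of all genes tested, 10.9%, 14.8% and 18.4% were called for the Eed null, Jarid2 null and Mtf2 null labels. In the line labelled Eed null 13 rose and 0 fell, with Hoxa9 (4.00), Hoxa10 (3.74), Hoxb13 (3.53) and Hoxc10 (3.33) leading and a median of 2.56. In that labelled Mtf2 null 12 rose, with Hoxa10 (3.72) and Hoxd9 (2.84), and in that labelled Jarid2 null 0 were called by limma, with 5 at an unadjusted p under 0.05 and a median of 0.89. In the line labelled Eed null Cdx2 differed from J1 by 0.06 over the days, a mean of opposite differences. It was above J1 at days 0 (1.25 against 0.178 CPM) and 2 (0.523 against 0) and below it at days 4 (3.81 against 11.2) and 7 (3.39 against 15.1). Cdx1 was higher there by 2.06 ± 0.77, without a call (adjusted p = 0.0905, limma). Of 22 caudal progenitor genes 2 rose in the line labelled Mtf2 null, Sp8 (2.07) and the retinoic acid receptor Rarg (0.75), a share below the 18.4% of all genes called there. Of 6 intestinal genes Hnf4a rose in the lines labelled Jarid2 null (3.74) and Mtf2 null (3.14), and Lgals4 in those labelled Eed null (1.23) and Mtf2 null (1.05). These 1 or 2 of 6 genes per line say little beside the shares of all genes called.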

How the data were processed

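RNA was measured in 48 directed libraries (ribosome-depleted total RNA), 24 bulk embryoid body samples (polyA RNA) and 16 single-cell libraries (SORT-seq of live cells in 384-well plates). For the directed series the authors deposited estimated counts per gene from Salmon (GRCm38); 74.9% and 73.1% of values were whole, and all were rounded. For bulk embryoid bodies the authors deposited a signal, gene counts divided by DESeq2 size factors, from which whole reads were recovered in 45 of 46 columns and added over the columns of a sample. For single cells the authors deposited UMI counts with clusters (res.2.5). The submitters' notes name CASAVA, Bowtie2, HTSeq, Salmon and DESeq2.

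Directed libraries were tested by the quasi-likelihood F test of edgeR 4.0.16 after TMM scaling and filterByExpr (count at least 10, total at least 15), with 1 mean per genotype and time over the 24 libraries of a series. The joint fits used 48 libraries or the 12 undifferentiated ones. Tested were 18361 genes in mesoderm, 19261 in endoderm, 19601 in both and 17796 in undifferentiated libraries. For embryoid bodies, limma 3.58.1 with a trend was run on log2 CPM (prior count 2, at least 1 CPM in 4 samples) and day entered as a block. Adjusted p-values are Benjamini-Hochberg over all genes tested, and all tests were two-sided. Where a group had 3 or fewer counts, the ratio of summed counts has an exact interval, and a group at 0 was set to 3 counts. Alternatives were DESeq2 1.42.0, RLE scaling, no filter, the compared groups alone, a replicate block, another prior count, log2 of the deposited values plus 1, no day block, edgeR on recovered reads, per-cell means, thinning and leaving out each library. R 4.3.3 and Python 3.11.15 were used.

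The members and lists were chosen with earlier results of these data known. Named are the 3 members and, from lists of caudal progenitor and signalling genes (24), central and posterior Hox genes (24), trophoblast genes (15), intestinal genes (11) and ParaHox genes and neighbours (8), the numbers called and up to 4 called genes with the largest change, or with the highest UMI level in clusters. The values of 1 gene of the intestinal list are not reported here. Duplicates were technical per the study's methods. They differed by more than sampling noise (chi-square per degree of freedom 3.20 to 17.1 in mesoderm and 2.37 to 12.1 in endoderm). Deviations of same-numbered libraries had a median correlation of 0.006 and 0.043, with 23 and 24 of 66 pairs of groups over 0.1, so the numbers did not pair them. On simulated data with known 4-fold changes, 51% of 100 changed genes were recovered in the undifferentiated Mtf2 null comparison of mesoderm (18361 genes). In that of endoderm (19261 genes) 66% were recovered. Of 2-fold changes 19% and 16% were recovered. A 2-fold change lies at the cutoff of the calls, which by itself removes many of them. In embryoid bodies 70% of 4-fold changes were recovered among 15837 genes.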

Additional observations from a re-analysis of the deposited data

Results flagged for a closer look

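Cdx1 at 5 h differed from WT in opposite directions in Jarid2 null cells of the 2 series. In mesoderm both Jarid2 null libraries (4.82 and 4.86 CPM) lay below both WT libraries (5.51 and 9.19 CPM), a log2 fold change of -0.59 ± 0.24 (adjusted p = 0.247, edgeR). In endoderm both Jarid2 null libraries (4.16 and 4.41 CPM) lay above both WT libraries (3.47 and 3.94 CPM), a log2 fold change of 0.21 ± 0.30 (0.948). Neither was called, and the difference between the series was not tested.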

How the results depend on the processing

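The calls of higher Cdx1 in Mtf2 null mesoderm held under DESeq2, RLE scaling, no filter, 2 groups only and the replicate block, and over all values of the directed series under such alternatives 300 kept their direction and their side of the threshold, 9 became called, 6 lost a call and 4 changed sign. Cdx1 in Mtf2 null endoderm at 24 h became called with no filter (1.28), in DESeq2 (1.28) and with 2 groups only (1.28), at 48 h with no filter (adjusted p = 8.6e-04), and its rise to 24 h with no filter (1.36) and in DESeq2 (1.37). Without the filter the rise of Cdx2 in Jarid2 null endoderm (2.86), the smaller change of Cdx2 in Mtf2 null than WT endoderm (adjusted p = 7.4e-04) and the larger rise of Cdx1 in Mtf2 null mesoderm than endoderm (1.503) were called too. DESeq2 lost the calls of Cdx2 in WT endoderm from undifferentiated to 24 h (adjusted p = 0.00341) and from 24 to 48 h (0.00456), and in Jarid2 null mesoderm from 5 to 24 h (-1.79) and from undifferentiated to 24 h (0.00915), the last lost also with the replicate block (0.00118). The replicate numbers pair no samples, and the block changed no other call. With 2 groups only, Cdx2 at 24 h of mesoderm lost its call in Jarid2 null (-2.10) and turned from 0.01 to -0.00 (-0.0033) in Mtf2 null. In WT mesoderm the change of Cdx2 from 5 to 24 h turned to -0.027 (RLE scaling), -0.022 (no filter) and -0.026 (DESeq2). In embryoid bodies edgeR on recovered reads gave -0.092 for Cdx2 with the Eed null label, and called 1452, 2310 and 2954 genes against 1731, 2347 and 2910 in limma. For each of these shifts the cause was not tested.

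Leaving out 1 library at a time, 345 values of the directed series kept direction and side, 32 lost a call and 15 changed sign. Calls were lost for Cdx1 in Mtf2 null against WT at 24 h of mesoderm (range 1.15 to 1.37), undifferentiated (1.97 to 2.29) and at 5 h (1.60 to 1.85) of endoderm, and for its rise to 24 h in WT (1.99 to 2.46) and Jarid2 null (1.72 to 3.29) endoderm. They were lost for Cdx2 in Jarid2 null against WT at 24 h of mesoderm (-2.36 to -1.89), and in Jarid2 null mesoderm from 5 to 24 h (-2.05 to -1.54) and from undifferentiated to 24 h (adjusted p 0.00259 to 0.0148). In WT endoderm Cdx2 ranged in adjusted p from 8.1e-04 to 0.00608 to 24 h and from 0.00126 to 0.00644 to 48 h, and in Jarid2 null from 1.4e-04 to 0.00196. Values without a call changed sign for Cdx2 in Mtf2 null mesoderm at 5 h (-0.033 to 0.48), 24 h (-0.031 to 0.044) and 48 h (-0.10 to 2.35), in Jarid2 null mesoderm at 48 h (-0.67 to 1.79), in WT mesoderm from 5 to 24 h (-0.21 to 0.30), in Jarid2 null endoderm at 24 h (-0.44 to 0.21) and in Mtf2 null endoderm to 24 h (-0.25 to 0.82). For Cdx1 they did so in Jarid2 null endoderm undifferentiated (-0.81 to 0.76), at 24 h (-0.036 to 0.48) and in the difference of its change to 24 h from WT (-0.52 to 1.05). Leaving out a day of embryoid bodies gave -0.58 to 0.81 for Cdx2 with the Eed null label and -0.22 to 1.31 for Cdx1 with the Jarid2 null label. A lone library of a group is assumed to vary like the others.

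Counts of genes called moved by over 1.5 times mostly for Jarid2 null. Without the filter they were 247, 175, 736 and 147 at the 4 times of mesoderm (68, 0, 362 and 31 with it), 300, 64, 74 and 166 in endoderm (143, 7, 6 and 24) and 364 in undifferentiated libraries of both series (190). DESeq2 called 119, 11 and 48 in mesoderm undifferentiated, at 5 h and at 48 h and 12 and 59 in endoderm at 24 and 48 h. With 2 groups only there were 2, 8 and 0 in mesoderm at 5, 24 and 48 h and 72, 13 and 10 in endoderm undifferentiated, at 5 h and at 48 h. Embryoid bodies without the day block gave 172, 540 and 641. Leaving out 1 library gave 5 to 50, 0 to 1, 27 to 497 and 10 to 23 in Jarid2 null mesoderm at the 4 times, 52 to 144 and 6 to 114 in endoderm undifferentiated and at 48 h, and 692 to 749 in Mtf2 null mesoderm at 24 h (1051 with all). Leaving out a day of embryoid bodies gave 284 to 1423, 758 to 2855 and 1054 to 3326 for the Eed null, Jarid2 null and Mtf2 null labels, the lowest each time without day 4. In single cells Cdx1 in Eed null at day 0 was 10.0 as a mean of per-cell values and 5.60 summed. Thinning to 2500 UMIs left 0 UMIs of Cdx1 in Eed null at days 4 and 7, Mtf2 null at days 4 and 10 and WT at day 0, and of Cdx2 in Mtf2 null at day 7 and Eed null at day 10.

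Depth limits what the Cdx genes can show. With 2 technical duplicates per group, 51% and 66% of simulated 4-fold changes were recovered in the undifferentiated Mtf2 null comparisons of mesoderm and endoderm. Cdx4 could not be tested, and a cluster or library of single cells rests on at most 49 UMIs of Cdx1 and 20 of Cdx2. The mesoderm and endoderm libraries form separate tables and are compared only through changes within a table. Each genotype is 1 cell line, so the line and the mutation cannot be told apart. In bulk embryoid bodies each mutant line stood beside the WT line that the study matched to it in background. These pairs differ from each other in their WT line. In the directed and single-cell libraries the titles name E14 throughout, while the study matched other WT lines to these mutants.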

Other observations

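The plate tables of the single-cell libraries, which hold more wells than the 4949 cells kept, had 6 UMIs of Cdx4 in all. Of these 3 were in the Eed null library of day 7 and 1 each in Mtf2 null of day 7, WT of day 7 and WT of day 10. Cdx2 had 42 UMIs in those tables and 41 in the cells kept. Pooled over days, Cdx1 stood at 5.18 UMI CPM in Mtf2 null, 3.00 in Eed null, 0.960 in Jarid2 null and 0.925 in WT, and Cdx2 between 0.963 and 1.17 in all 4 genotypes. Cells with a Cdx1 UMI had a median of 11235.5 UMIs and those with a Cdx2 UMI 7207.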
